A study of Mus musculus with 12 samples.

Results

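The Thy1 gene on chromosome 9 was followed through 12 libraries of H3K9me2 chromatin immunoprecipitation and sequencing (ChIP-seq) from mouse prefrontal cortex. Its members were the regions on chromosome 9 that the deposited tables give to Thy1, as the gene overlapped or the gene with the closest transcription start. They numbered 1 of 33787 regions in the table of FAD against WT and 3 of 43680 in the table of FAD-BIX against FAD. The FAD-BIX mice were familial Alzheimer's disease (FAD) model mice treated with BIX01294, which blocks the histone methyltransferases EHMT1 and EHMT2. FAD mice were the same model without that treatment, and WT mice were wild type. All were C57BL/6 mice of 5 to 6 months, with 2 mice per group, and each mouse gave 1 ChIP and 1 input library. The dose of the inhibitor, the FAD line and the promoter of its transgenes are not given in the sources used here. Thy1 was chosen by its input and ChIP RPM in these same libraries, so all of its values are given as a description and none was tested.

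Thy1 encodes a small surface glycoprotein of the immunoglobulin superfamily, held in the membrane by a glycosylphosphatidylinositol anchor and abundant on mature neurons. Its promoter region and first intron are widely used to drive transgenes in neurons. Such transgenes are usually inserted as arrays of repeated copies that carry mouse Thy1 sequence, and reads from that sequence align to the native gene. An input library is made from the sheared chromatin before immunoprecipitation, so its reads follow the amount of DNA and not the histone mark. H3K9me2 is a mark of repressed chromatin laid down mainly by EHMT1 and EHMT2.

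Library totals, worked out from the deposited RPM (reads per 1 M reads of the library), were 20.4 to 26.6 M reads in ChIP and 13.9 to 23.8 M in input. The median autosomal region held 11 to 20 ChIP reads and 2 to 5 input reads. The library labelled FAD 1 stood apart in some genes other than Thy1. In its ChIP, the regions of 16 heart muscle marker genes summed to 65.8 RPM, against 18.1 RPM in FAD ChIP 2, and 9.84 and 7.22 RPM in WT ChIP. In the second table they summed to 12.6 and 10.7 RPM in FAD-BIX ChIP, and to 69.8 RPM in the ChIP labelled FAD 1 and 18.8 RPM in FAD ChIP 2. In the first table those were 22 regions in 5 of the 16 genes, and the other genes had none; in the inputs they summed to 6.41 RPM in the library labelled FAD 1 and 8.08 RPM in FAD 2, against 7.11 and 6.58 RPM in WT. In the first table the high ChIP sum of the library labelled FAD 1 lay mainly in Myh6, Actc1 and Mb. They held 30.9, 18.8 and 9.18 RPM there, against 3.32, 2.21 and 0.433 RPM in FAD ChIP 2. Ryr2, with 12 of the 22 regions, was instead lower in that library than in FAD ChIP 2, at 5.29 against 10.9 RPM. Ryr2 held 5.43 RPM in WT ChIP 1 and less in WT ChIP 2. In the second table Ryr2 was again lower in the ChIP labelled FAD 1, at 6.3 against 12.3 RPM. Regions of 11 cortical neuron marker genes summed to 5.37 and 9.95 RPM in FAD ChIP of the first table. In WT ChIP they summed to 6.78 and 5.38 RPM. In the second table they summed to 6.66 RPM in the ChIP labelled FAD 1 and 13.6 RPM in FAD ChIP 2. The FAD-BIX ChIP libraries held 12.3 and 10.5 RPM, so the ChIP labelled FAD 1 was the lowest of that table. Only 5 of the 11 neuron genes had regions, 13 in the first table and 20 in the second, and Syt1 held 8 and 12 of these. The ChIP labelled FAD 1 also had the smallest share of its reads in all regions of the second table, at 2.55% against 2.81% to 4.23%. The part of these marker genes in the values of the mouse labelled FAD 1 at Thy1 was not tested. Whether the label of that mouse is right was not tested either.

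The 3 segments lay along the gene as follows, in the coordinates of the files (GRCm38, where Thy1, ENSMUSG00000032011, runs from 44043384 to 44048579 on the plus strand). The upstream region, chr9:44042078-44042390 in the first table and chr9:44042064-44042390 in the second, overlapped no gene and ended at -994 bp from the transcription start. The start region, chr9:44042877-44045067, ran from -507 to 1683 bp from the transcription start, with its centre in intron 1. The 3′ region, chr9:44047581-44049759, began in the 3′ untranslated region and ended 1180 bp past the gene. The 2514 bp between the start region and the 3′ region, which hold the middle of the gene, were in no called region. The start region was called in 3 ChIP libraries (both FAD-BIX libraries and FAD 2), and the other regions of the second table in FAD-BIX 2 and FAD 2. In the first table the upstream region was called in FAD 2 alone. The first table lists no other Thy1 region, so reads of the WT libraries over the gene itself are not analysed here. Of the 21930 regions of the second table called in FAD ChIP 2, 378 (1.72%) had no overlapping region in the first.

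Upstream of Thy1, input reads were high in both FAD-BIX mice and in FAD 2, and low in the mouse labelled FAD 1 and in both WT mice. FAD-BIX inputs held 479 and 260 reads, which is 32.6 and 18.7 RPM in the region of the second table. In the first table, the input labelled FAD 1 held 9 reads and FAD input 2 held 363, or 0.697 and 24.1 RPM, against 2 and 12 reads, or 0.126 and 0.750 RPM, in WT. The order was thus FAD-BIX 1, FAD 2, FAD-BIX 2, WT 2, FAD 1 and WT 1. Per kb, the exact 95% counting intervals of the first 3 were apart from each other, at 91.2 to 109, 69.4 to 85.4 and 50.5 to 64.7 RPM per kb. Those of WT 2 (1.15 to 3.88 RPM per kb), FAD 1 (0.919 to 3.81) and WT 1 (0.0327 to 0.975) overlapped from one to the next, but WT 2 and WT 1 did not overlap. The input labelled FAD 1 could not be told from WT input 2 at this depth. All intervals here cover counting error only and not the spread between mice.

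ChIP reads upstream of the gene separated the same mice. FAD-BIX ChIP held 569 and 548 reads, or 27.9 and 25.0 RPM. The ChIP labelled FAD 1 had 4 reads and FAD ChIP 2 had 839, or 0.201 and 40.4 RPM, against 5 and 2 reads, or 0.245 and 0.113 RPM, in WT. In RPM, FAD ChIP 2 was the highest of the 6 ChIP libraries and FAD-BIX 1 the highest of the inputs. Over the median autosomal region of each ChIP library, FAD-BIX 1 was the highest, at 53.1 times, with FAD-BIX 2 at 47.8 times and FAD 2 at 43.7 times in the first table. The FAD and WT groups overlapped in both ChIP and input, since the mouse labelled FAD 1 lay within the WT range.

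**Figure D1:**
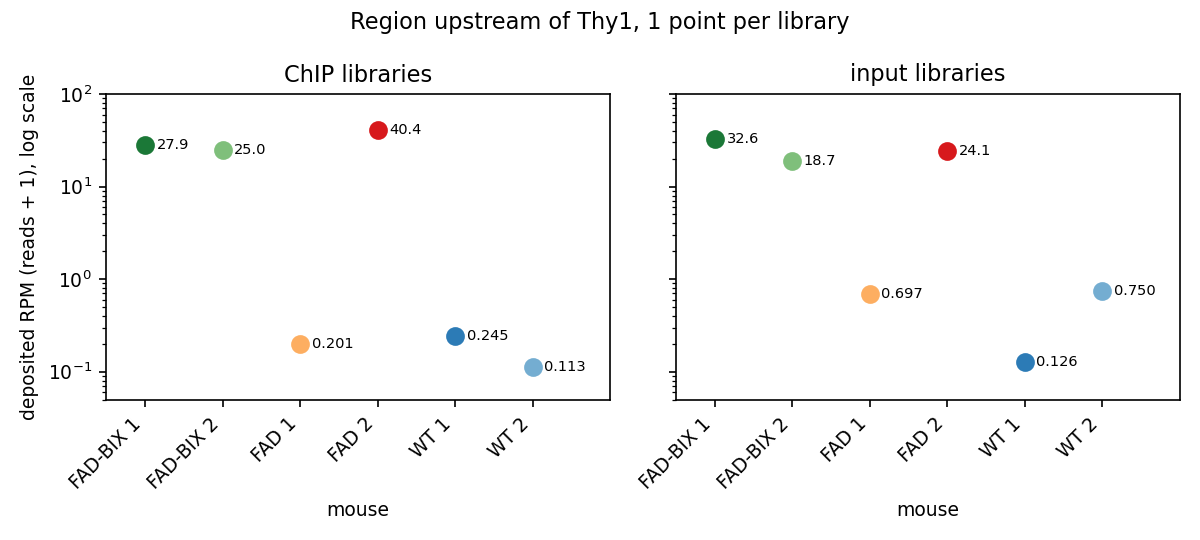
Deposited RPM (log scale) in the region upstream of Thy1, 1 point per library, for ChIP (left) and input (right), with FAD-BIX from the second table and FAD and WT from the first, whose region is slightly narrower. FAD-BIX 1, FAD-BIX 2 and FAD 2 sit between 18.7 and 40.4 RPM and the other 3 mice at or below 0.750 RPM.

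Within the 3 mice with many reads, input reads were spread nearly evenly over the 3 segments. In FAD-BIX input 1 the density was 100.2 RPM per kb upstream, 83.6 over the start region and 86.2 over the 3′ region. In FAD-BIX input 2 it was 57.5, 43.1 and 41.3 RPM per kb. In FAD input 2 it was 75.6, 81.6 and 74.6 RPM per kb. The 3′ region thus held 1.03 (95% counting interval 0.978 to 1.09), 0.958 (0.886 to 1.04) and 0.913 (0.864 to 0.965) times the density of the start region in FAD-BIX 1, FAD-BIX 2 and FAD 2. The upstream region was denser than the start region in FAD-BIX 1, by 1.20 times (1.08 to 1.32), and in FAD-BIX 2, by 1.33 times (1.16 to 1.52), but not in FAD 2, at 0.924 times (0.827 to 1.03). FAD-BIX input 2 was the lowest of these 3 inputs in every segment. The input labelled FAD 1 held 9, 31 and 17 reads in the same segments, or 2.14, 1.02 and 0.576 RPM per kb.

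ChIP reads followed a nearly flat course as well. FAD-BIX ChIP 1 held 85.5, 83.9 and 84.4 RPM per kb from the upstream to the 3′ region, and FAD-BIX ChIP 2 held 76.6, 85.1 and 75.8. FAD ChIP 2 held 125.7, 120.8 and 130.9 RPM per kb. The library labelled FAD 1 held 4, 4 and 12 reads, or 0.615, 0.0916 and 0.239 RPM per kb. Both FAD-BIX mice therefore had nearly the same ChIP density although their inputs differed, and FAD 2 had a higher ChIP density in RPM than either. That order depended on the scale. Over the median autosomal region of the ChIP library, the segments stood at 53.1, 52.1 and 52.4 times in FAD-BIX 1, at 47.8, 53.1 and 47.3 times in FAD-BIX 2, and at 47.7, 45.8 and 49.6 times in FAD 2. The regions of the second table took 2.96% and 2.81% of all reads of the FAD-BIX ChIP libraries, against 2.55% in the ChIP labelled FAD 1 and 4.23% in FAD ChIP 2. FAD ChIP 2 held 5927 reads over the 2178 bp of the 3′ region, more than the 4356 start positions on both strands. Reads that share a start and strand were thus among those counted, and counting intervals are too narrow where such reads are copies of 1 fragment.

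**Figure D2:**
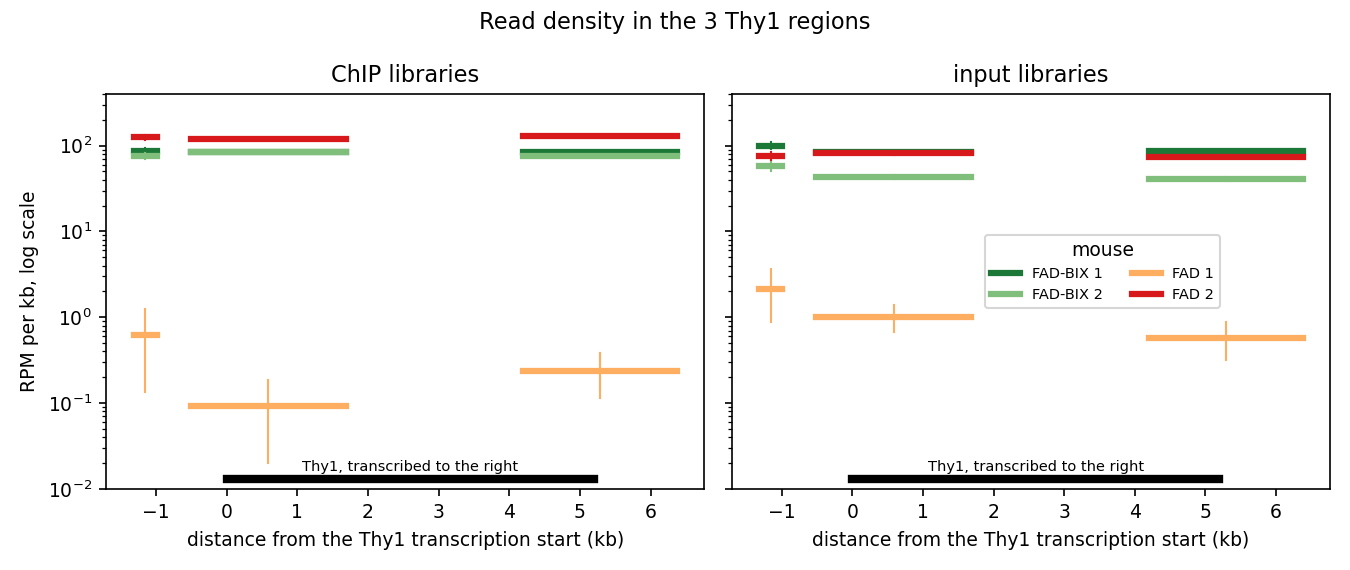
Read density in RPM per kb (log scale) of the 3 Thy1 regions of the second table against distance from the transcription start, for ChIP (left) and input (right). Horizontal bars span each region, thin vertical lines are exact 95% counting intervals, and the black bar is the gene. FAD-BIX 1, FAD-BIX 2 and FAD 2 run nearly level between 41.3 and 130.9 RPM per kb, and the mouse labelled FAD 1 lies at or below 2.14.

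Set against the median autosomal region of the same library, input reads at Thy1 were 75.6 to 136 times as dense in these mice. Per kb and with 1 added read, the 3 segments from upstream to 3′ stood at 135, 113 and 116 times that median in FAD-BIX 1, at 105, 78.9 and 75.6 times in FAD-BIX 2, and at 126, 136 and 124 times in FAD 2. In the library labelled FAD 1 they stood at 3.17, 1.51 and 0.853 times. In the first table the upstream region stood at 3.27 and 132 times in FAD, against 0.609 and 3.18 times in WT. The size of these factors depended on the few input reads of the median region: against autosomal regions with at least 5 input reads in every mouse, the summed Thy1 regions stood at 49.3 and 31.4 times in FAD-BIX and at 0.583 and 57.6 times in FAD. They are therefore not numbers of gene copies.

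Few regions of the tables had so much input. A density of at least 10 times the median with at least 20 reads was reached by 0.197% and 0.243% of all regions in the FAD-BIX inputs, and by 0.208% in the input labelled FAD 1 and 0.238% in FAD 2 of the same table. All 3 Thy1 regions were among them in FAD-BIX 1, FAD-BIX 2 and FAD 2, and 0 of 3 in the library labelled FAD 1. In the first table the Thy1 region passed in FAD 2, where 0.34% of regions did, and not in FAD 1 (0.272%), WT 1 (0.296%) or WT 2 (0.284%). Most regions high in 1 input were high in the rest: of the 115 in FAD input 2 of the first table, 71 passed in all 4 inputs. Passing in FAD input 2 alone was not particular to Thy1, which was among 22 such regions. Those that passed in FAD 1, WT 1 or WT 2 alone numbered 6, 8 and 6. In ChIP the same rule was passed by all 3 Thy1 regions in FAD-BIX 1 (0.19% of all regions), FAD-BIX 2 (0.181%) and FAD 2 (0.158%), and by 0 in the library labelled FAD 1 (0.234%). In ChIP of the first table it was passed by the upstream region in FAD 2 (0.186%), and not in FAD 1 (0.287%), WT 1 (0.281%) or WT 2 (0.255%).

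Between single input libraries, ratios of these densities over the library's own median put the same mice apart. FAD input 2 over WT input 1 was 216 at the upstream region, on 363 and 2 reads, and over WT input 2 it was 41.5, on 363 and 12 reads. Among other regions with at least 20 reads in either input of the pair, the largest ratio was 42.8 over WT input 1. Over WT input 2 it was 40.0, close to the value at Thy1, in a region with Prr16 as the closest gene. FAD-BIX input 1 over the input labelled FAD 1 was 42.6, 74.7 and 136 from the upstream to the 3′ region, and FAD-BIX input 2 over it was 33.2, 52.3 and 88.5. Both FAD-BIX inputs thus stood far above the input labelled FAD 1 in every segment. The largest ratio of other regions in these pairs was 31.1 for FAD-BIX input 1 and 11.4 for FAD-BIX input 2. Over FAD input 2, the Thy1 ratios were 1.07, 0.829 and 0.936 for FAD-BIX 1 and 0.835, 0.580 and 0.609 for FAD-BIX 2. In RPM per kb, by contrast, FAD-BIX input 1 was above FAD input 2 in all 3 segments, so which of the inputs was higher depended on the scale. The input labelled FAD 1 over WT inputs 1 and 2 was 5.37 and 1.03, on 9 reads against 2 and 12.

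**Figure D3:**
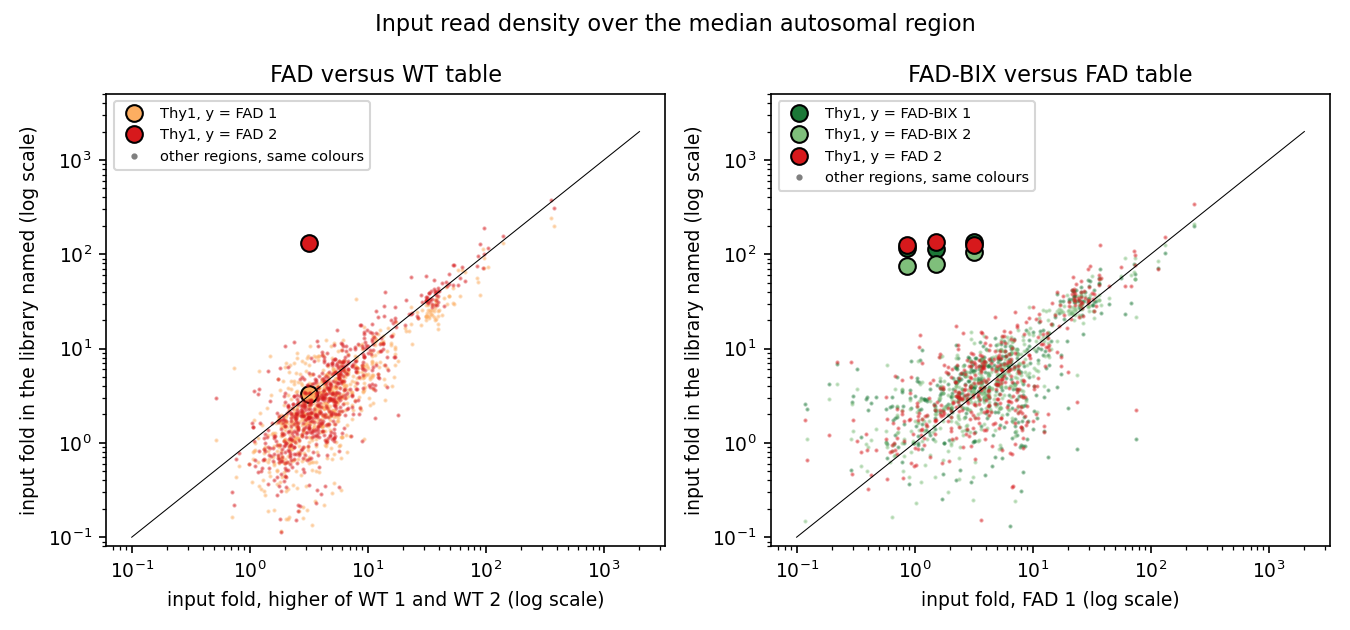
Input density over the median autosomal region (log scales), for regions with at least 20 reads in 1 input of the table: at left FAD 1 and FAD 2 against the higher of the WT inputs, at right FAD-BIX 1, FAD-BIX 2 and FAD 2 against FAD 1. Ringed points are the Thy1 regions, which lie far above the line of equality in all libraries shown except FAD 1, at 3.27 times on the line.

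ChIP over input asks how much of the mark the DNA at Thy1 carried. In FAD-BIX 1 the ratio of RPM was 0.854 (95% counting interval 0.755 to 0.967) upstream, 1.00 (0.956 to 1.06) at the start region and 0.979 (0.932 to 1.03) at the 3′ region. In FAD-BIX 2 it was 1.33 (1.15 to 1.55), 1.97 (1.856 to 2.103) and 1.83 (1.72 to 1.96), and in FAD 2 it was 1.66 (1.47 to 1.89), 1.48 (1.41 to 1.55) and 1.75 (1.67 to 1.84). The ratio of the genome outside the regions was 0.983 in FAD-BIX 1, within the intervals of its start and 3′ regions and above that of its upstream region, while FAD-BIX 2 and FAD 2 were above theirs (0.980 and 0.967). The mouse labelled FAD 1 had far fewer ChIP than input reads, with ratios of 0.288 (0.0576 to 0.917), 0.0899 (0.0190 to 0.210) and 0.416 (0.177 to 0.903).

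These ratios were below that of the median autosomal region, and the regions of the tables are ones called on ChIP signal. That median was 2.16 in FAD-BIX 1 and 2.85 in FAD-BIX 2, and 2.11 in FAD 1 and 4.11 in FAD 2. On the log2 scale, the summed Thy1 regions stood at -1.14 (-1.19 to -1.09) in FAD-BIX 1 and -0.62 (-0.68 to -0.56) in FAD-BIX 2, and at -3.34 (-4.20 to -2.63) in FAD 1 and -1.35 (-1.39 to -1.30) in FAD 2. Of all autosomal regions, 17.7% and 33.8% had a lower ratio in the FAD-BIX mice, and 0.513% and 17.8% in the FAD mice. The difference depended on the reference. Against autosomal regions with at least 100 input reads, of which there were 27 and 24 in the FAD-BIX mice and 25 and 28 in the FAD mice, it was -0.72 and 0.14 in the FAD-BIX mice and -3.06 and -0.54 in the FAD mice, so that its sign turned in FAD-BIX 2. Against regions not called in each library it was -0.75 and -0.03 in the FAD-BIX mice and -3.20 and -0.43 in the FAD mice.

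At the upstream region of the first table the ratio was 0.288 (0.0576 to 0.917) and 1.67 (1.48 to 1.90) in FAD, against 1.94 (0.397 to 25.5) and 0.151 (0.0118 to 0.488) in WT. The WT mice thus spanned more than the FAD mice, on 5 and 2 ChIP reads with 2 and 12 input reads. When the mean WT RPM was taken off, FAD 2 held 40.2 RPM of ChIP and 23.7 RPM of input, a ratio of 1.70, so that nearly all reads in that mouse were beyond the WT level. Whether all copies of the sequence or some of them carry the mark cannot be told apart, since reads of both align to the same place.

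**Figure D4:**
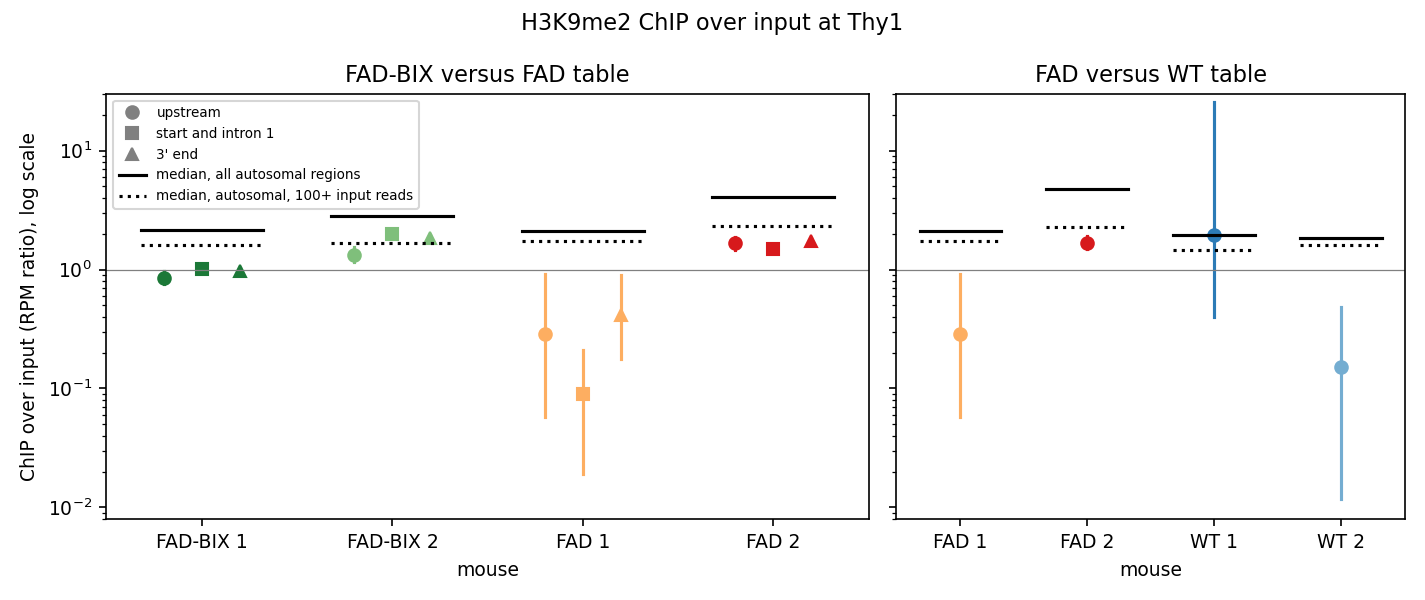
ChIP over input (ratio of RPM, log scale) at the Thy1 regions of each mouse, with exact 95% counting intervals. Solid black lines are the median of all autosomal regions and dotted lines that of autosomal regions with at least 100 input reads; the grey line is a ratio of 1. All points lie below the solid line of their mouse except that of WT 1, which lies on it at 1.94.

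FAD was compared with WT as labelled, and the group means hid the difference between the FAD mice. Mean input RPM upstream of Thy1 was 12.4 ± 16.6 in FAD and 0.438 ± 0.441 in WT (SD, n = 2 each), a log2 ratio of 4.82, and mean ChIP RPM was 20.3 ± 28.4 in FAD and 0.179 ± 0.0935 in WT, a log2 ratio of 6.83. A mean at least 4-fold higher in FAD was found in 0.736% of the 679 regions with at least 20 reads in 1 input and in 1.45% of the 25914 in ChIP, Thy1 among them, and one at least 4-fold lower in 2.5% in input and 0.529% in ChIP. The SD of the FAD mice exceeded their mean, and the ratios rested on FAD 2: without that mouse they were 0.67 in input and 0.16 in ChIP, and without the mouse labelled FAD 1 they were 5.78 and 7.82. Leaving out WT 1 or WT 2 gave 4.05 and 6.62 in input. With geometric means of the mice the log2 ratios were 3.74 in input and 4.10 in ChIP, and scaling by size factors took the ratio in ChIP to 52.2, against 113 in RPM. In the authors' deposited table the log2 fold change of this region, which is that of the mean ChIP over input of each group, was -0.09 with a q-value of 1.

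FAD-BIX was compared with FAD in the same way, and no Thy1 region reached a 4-fold difference between arithmetic means. Mean input RPM in the upstream, start and 3′ regions was 25.7 ± 9.83, 138.7 ± 62.6 and 138.9 ± 69.1 in FAD-BIX mice, against 12.7 ± 16.9, 90.5 ± 125 and 81.8 ± 114 in FAD mice (SD, n = 2 each). The ratios were 2.03, 1.53 and 1.70. Mean ChIP RPM was 26.4 ± 2.07, 185 ± 1.86 and 175 ± 13.2 in FAD-BIX mice, against 20.6 ± 28.8, 132 ± 187 and 143 ± 201 in FAD mice, with ratios of 1.28, 1.40 and 1.22. A mean at least 4-fold higher in FAD-BIX was found in 1.84% of 434 regions in input and 0.496% of 27216 in ChIP, and one at least 4-fold lower in 0.922% in input and 1.01% in ChIP, with 0 of the 3 Thy1 regions in any of these. The FAD-BIX mice lay between the FAD mice in ChIP at all 3 regions, and the groups overlapped. Without the mouse labelled FAD 1 the summed log2 ratio turned to -0.27 in input and -0.61 in ChIP, and without FAD 2 it was 6.23 and 8.84. With geometric means the summed ratios were 7.44 in input and 17.3 in ChIP. In the authors' deposited table the log2 fold changes were 0.16, 0.92 and 0.37, each with a q-value of 1. The FAD libraries enter both comparisons.

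The excess was not seen in the nearest other regions of chromosome 9, which lay far away. The closest region upstream was 1022 kb from Thy1 in the second table, in Arhgef12, and the closest downstream was 1333 kb away in the first, in Fxyd6, a regulator of the sodium pump. Over the 5 nearest regions on each side in either table, input density was 0.239 to 2.76 and 0.215 to 2.96 times the median in the FAD-BIX mice, 0.290 to 3.02 and 0.288 to 3.36 times in the FAD mice, and 0.424 to 1.18 and 0.253 to 2.83 times in the WT mice. Where between Thy1 and these regions the excess ended could not be seen.

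Among listed genes related to neuronal transgenes, App alone had regions to count. Of 8 listed genes only App, the amyloid precursor gene, had regions, 3 in the second table and 2 in the first. Input reads of App in the second table numbered 1 and 4 in the FAD-BIX mice, against 5 and 7 in the FAD mice. That was 0.0680 and 0.287 RPM against 0.348 and 0.464 RPM. In the first they numbered 4 and 0 in the FAD mice, against 12 in each WT mouse. That was 0.279 and 0 RPM in FAD against 0.505 and 0.692 RPM in WT. With so few reads, these values do not show whether App input differed between groups. The other listed genes had no region, so nothing can be said of them. Of 13 listed neuronal surface and Thy1 partner genes, 6 had 71 regions in the second table and 5 had 59 in the first. None of these regions passed the 10-fold rule in any input, a rule that 0.197% to 0.34% of all regions passed, so a count of 0 among so few says nothing particular of these genes. Their highest input density was 4.73 times the median, in Opcml in FAD-BIX 2; Opcml encodes a cell adhesion molecule that, like Thy1, has a glycosylphosphatidylinositol anchor.

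The regions whose values over the 8 libraries of a table were most like those of Thy1 included 1 near Duxf3 in both tables. By Pearson correlation of log2 RPM, a description over libraries that share mice and depth, the closest in the first table was a region at -1176 bp from the start of Duxf3, a double homeobox gene (r = 0.83, among 678 regions), which had r = 0.66 among 431 regions of the second. Its input reads numbered 57 and 90 in the FAD-BIX mice, 38 and 82 in the FAD mice, and 55 and 69 in the WT mice, so the lowest was 38 and the highest 90. The others named by the same rule had r from 0.69 to 0.75 in the first table and from 0.65 to 0.70 in the second.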

How the data were processed

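Per the labels' protocols, prefrontal cortex was cross-linked and sonicated, and reads were single-end or paired-end. The submitters' processing notes name MACS2 2.1.0, BWA 0.7.12, Trimmomatic and FastQC, and build mm9, but the Thy1 coordinates in the files equal those of RefSeq on GRCm38.p6. No source used here says whether positions count from 0 or 1. The authors deposited read counts per region and library, the RPM (counts plus 1, times a constant of the library), a fold enrichment (ratio of ChIP to input RPM), a log2 fold change, p-values and q-values, and marks of the libraries a region was called in. The 34413 and 44428 deposited rows were reduced to 1 per region.

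Library totals were taken from the deposited RPM. Intervals are exact (Poisson, or Clopper-Pearson for ratios; SciPy 1.17.1), cover counting error only, and take medians as fixed. No test between groups was run: 2 mice against 2 could not go below p = 0.333 in a two-sided exact permutation test. Members, lists and rules were chosen with earlier results of these data known. The genes named were the 5 nearest regions per side, the 5 most alike and the listed genes; the reference of at least 100 input reads was chosen after the values were seen. No source used here gives a batch, or which library had which read type. The fold rule was tried on simulated Poisson counts in which some regions were raised by known folds. Those counts held no copied reads and no other regions high in input. The trial therefore does not show how the rule performs on such regions. Alternatives covered scaling (edgeR 4.0.16 TMM, size factors, reads in regions), the added count, the reference regions, the Thy1 regions used and each mouse left out.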

Additional observations from a re-analysis of the deposited data

How the results depend on the processing

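Of 170 alternative values, 29 moved beyond the spread between mice or 1.5 times a count. The spread between the FAD mice is so wide that the other 141 say little of stability. With no added count the input factor was 167 and 121 in FAD-BIX. With a reference of at least 5 input reads it was 49.3 and 31.4. The log2 ChIP over input beyond the reference moved in FAD-BIX 1 to -0.75 with that reference, -0.75 with regions not called and -0.72 with at least 100 input reads; in FAD-BIX 2 to -1.26 with no added count, -0.0057, -0.034 and 0.14 with these references in turn; and in FAD 2 of the first table to -0.38 with regions not called and -0.44 with at least 100 input reads. Leaving out 1 mouse gave log2 ratios of 0.16 to 7.82 (ChIP) and 0.67 to 6.62 (input) for FAD over WT, and -0.61 to 8.84 and -0.27 to 6.23 for FAD-BIX over FAD. A 5-fold rule took in 189 regions in FAD-BIX 1, 178 and 178 in FAD of the second table, 176 and 183 in FAD of the first, and 227 and 204 in WT. A 20-fold rule took in 55 and 68 in FAD of the second table, 57 and 71 in FAD of the first, and 59 in WT 1. The cause of these moves was not tested. Scaling by size factors, TMM and reads in regions gave a FAD over WT ChIP ratio of 52.2, 54.2 and 63.0, against 113 in RPM, and a FAD-BIX over FAD ChIP ratio of 2.09, 2.08 and 1.91, against 1.31 in RPM. The first table has no Thy1 region that overlaps the gene or is long enough for the length minimum, so those alternatives gave no value there. No paired analysis was possible because the group ratios come from no test and replicate numbers tie no mouse of 1 group to a mouse of another; ChIP and input were paired within each mouse.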
